A study of Caenorhabditis elegans with 2 samples.

Results

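The genes described here encode the proteins of the nuclear pore and of transport through it. They are all 40 protein-coding genes of the WBcel235 annotation whose names begin with npp-, imb-, ima-, ran- or xpo-, out of 19985 protein-coding genes in all, of which 19973 lie on the nuclear chromosomes. Chromatin immunoprecipitation followed by sequencing (ChIP-seq) had been used to find where UNC-130, a forkhead transcription factor, lay on the genome of Caenorhabditis elegans. The single group held 2 biological replicates of strain AGK541, whole young adult hermaphrodites taken 56 hours after synchronization as starved first larvae. Both replicates carried the single transgene armSi1, in which the promoter of the germline gene mex-5 drives UNC-130 with a C-terminal green fluorescent protein (GFP) tag ahead of the tbb-2 3′ UTR, together with cb-unc-119(+), unc-119(ed3) and niDf199. Precipitation used an antibody against GFP, there was no second condition, and the transgene is one insertion under a promoter that is not that of unc-130. In whole worms, strong binding in few nuclei and weak binding in many cannot be told apart.

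The nuclear pore complex is a ring of nucleoporins that spans the nuclear envelope. Its outer and inner rings form the scaffold, nucleoporins rich in phenylalanine-glycine repeats fill the channel, and other nucleoporins form the filaments on the cytoplasmic side and the basket on the nuclear side. Cargo is carried by importins and exportins, and the small GTPase Ran, loaded with GTP in the nucleus and discharged in the cytoplasm, sets the direction. In the early worm embryo, stocked with these proteins by the mother, the envelope and its pores are taken down and rebuilt at each division.

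Candidate regions of UNC-130-GFP signal lay in the promoter windows of most of these genes, and 14 of the genes had a final peak. The promoter window of a gene covered 1000 bp before any of its transcript starts and 200 bp after it, and a region counted where its summit, the point of highest signal, fell inside. Of the 40 genes, 37 had a candidate region of the pooled replicates there (92.5%, 95% Wilson interval 80.1–97.4), against 36.5% of all nuclear protein-coding genes. The pooled list is named peaks and background, so a candidate region need not be a peak. Its −log10 q-value, higher for a stronger call, went down to 0.0177. At the best regions of the 37 genes it ran from 0.0836 at npp-20 to 3.56. An optimal peak, that is an entry of the authors' final list, was present at 14 of these 37 (37.8%, interval 24.1–53.9), against 14.5% of all genes with a candidate region. Counted over all 40 genes the share was 35%, against 5.29% of all nuclear protein-coding genes. Intervals cover the counting of genes only, genes that share a peak are not independent, and the difference from other genes was not tested. Read numbers are not part of these lists, so sequencing depth is unknown.

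The signal value is the peak caller's own number for a region, whose scale is not stated, and is compared only within a list. The best promoter region of the 37 genes had a median pooled signal of 34.7 (range 13.6 to 151), against 21.4 over all 7285 genes with a candidate region. In rank, 1 being the highest of 22082 nuclear regions, the median of the 37 genes lay in the top 11.1% of the pooled list, against the top 29.1% for all genes with a candidate. The final list began at a signal of 53.5. The weakest of the 14 peaks was that of npp-15 at 56.1, and the strongest region that missed the list was that of imb-3 at 42.0. A gap thus separated the genes on either side of the threshold.

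The bases at some of these peaks are shown because the strings described further on lie in them. Capitals mark a string of the class bound by the cell cycle factors E2F and DP (written TTGGCGC, or TTCCCGC, or TTGCCGC, or else TTCGCGC), and each run is read 5′ to 3′ on the strand that holds the string as written. The first stands at npp-3, whose peak had the highest signal of the set, at chrII:11874928-11874957 on the plus strand. The second npp-3 match is at chrII:11874866-11874895, plus strand. Those of ima-1 (chrV:11239433-11239462, minus strand) and npp-9 (chrIII:3404571-3404600, minus) follow, then those of npp-8 (chrIV:1595904-1595933, plus) and ran-1 (chrIII:10748076-10748105, plus, and chrIII:10748130-10748159, minus). Bases are from the RefSeq copy of WBcel235, the assembly that ce11 names.
npp-3, match 46 bp from the summit: cggacgctcattTTGGCGCgctcagttgtt
npp-3, match 16 bp from the summit: agctgtgtatttTTCGCGCgttcgctgcga
ima-1, match 24 bp from the summit: agtggaattatTTCCCGCgtgccgccagtt
npp-9, match 48 bp from the summit: atttgcgaagcTTGGCGCccaatttctatt
npp-8, match 96 bp from the summit: aacccggaaaacTTCCCGCaaaacgcaact
ran-1, match 73 bp from the summit: agatgacaaaacTTGGCGCcagggacaaga
ran-1, match 19 bp from the summit: ttttgttcattTTGGCGCgcaaatctggct

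**Figure D1:**
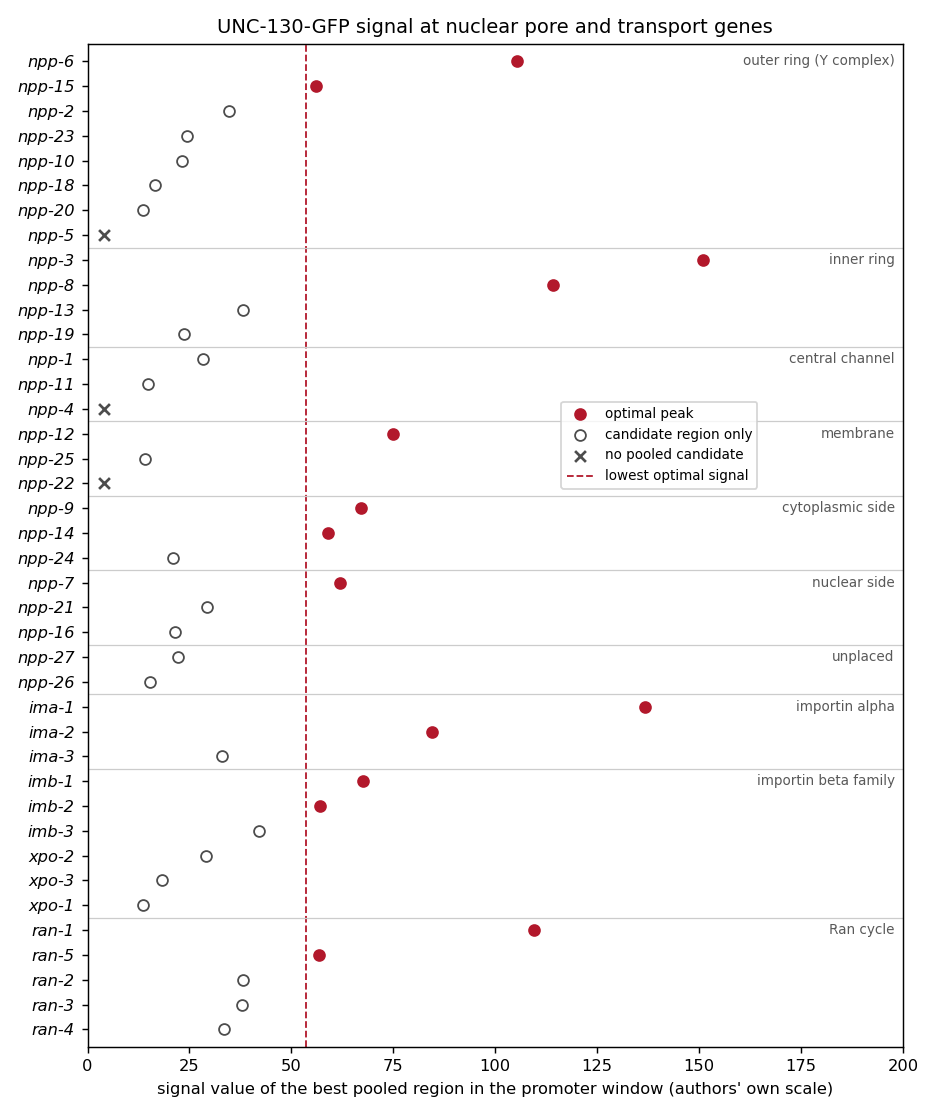
Signal value of the best pooled region in the promoter window of each of the 40 genes, grouped by the role of the protein; filled points are optimal peaks, open points candidate regions only, and crosses genes with no pooled candidate region, drawn at the left edge. The dashed line is the lowest nuclear optimal signal, 53.5, and npp-3 (151) and ima-1 (137) lie farthest to its right.

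The inner ring held the strongest peak of the set, and peaks stood at 2 of its 4 genes. npp-3 encodes the homolog of Nup205, a large scaffold protein, and its peak at chrII:11874756-11874994 had a pooled signal of 151, rank 56 among the nuclear peaks. It scored 82.99 in replicate 1 (rank 52) and 66.5 in replicate 2 (rank 97). npp-8, the homolog of Nup155, had a peak at chrIV:1595800-1596229 with a pooled signal of 114, and 52.3 and 60.9 in replicates 1 and 2 (ranks 303 and 129). Both genes thus stood high in both lists. npp-13, the homolog of Nup93, had a region of signal 31.7 and rank 1042 in replicate 1, no region with its summit in the window in replicate 2, and a pooled signal of 38.1. npp-19, the homolog of Nup35, had a pooled signal of 23.6.

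Of the 8 genes of the outer ring, or Y complex, peaks stood at npp-6 and npp-15. npp-6, the homolog of Nup160, had a narrow peak of 158 bp at chrI:5176363-5176520 with a pooled signal of 105, and 51.6 and 52.7 in replicates 1 and 2 (ranks 319 and 197). npp-15, the homolog of Nup133, had a peak at chrIII:7928635-7929064 with a pooled signal of 56.1, and 34.9 and 18.2 in replicates 1 and 2 (ranks 839 and 2586). The npp-6 peak ranked high in both lists, whereas that of npp-15 ranked high in replicate 1 alone. The remaining members of the complex lay below the threshold, with pooled signals of 34.7 at npp-2 (Nup85), 24.5 at npp-23 (Nup43), 23.1 at npp-10 (Nup98 and Nup96), 16.6 at npp-18 (Seh1) and 13.6 at npp-20 (Sec13). No list held a summit in the window of npp-5, the homolog of Nup107.

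No gene of the central channel had an optimal peak. npp-1, the homolog of Nup54, and npp-11, that of Nup62, had pooled signals of 28.3 and 14.8, and npp-4, the homolog of Nup58, had no summit in its window in any list. Among the membrane nucleoporins, npp-12, the homolog of gp210, had a peak at chrI:6446446-6446875 with a pooled signal of 74.9, and 28.7 and 43.7 in replicates 1 and 2 (ranks 1284 and 349). npp-25, the homolog of TMEM33, had a pooled signal of 14.2. npp-22, the homolog of Ndc1, had weak regions in the replicates (9.85 and 12.9) and none in the pooled list. Of the membrane set npp-12 was therefore the one gene above the threshold.

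On the cytoplasmic side peaks stood at npp-9 and npp-14. npp-9 encodes the homolog of RanBP2 (Nup358), which carries Ran-binding domains at the filaments, and its peak at chrIII:3404323-3404752 had a pooled signal of 67.1, with 29.7 and 36.5 in replicates 1 and 2 (ranks 1201 and 571). npp-14, the homolog of Nup214, had a peak at chrI:9665017-9665446 with a pooled signal of 59.0, and 22.2 and 35.2 in the replicates (ranks 2136 and 617). npp-24, the homolog of Nup88, had a pooled signal of 20.9. The mRNA export factor gene rae-1, which works at the same side of the pore and whose name lies outside the rule, had an optimal peak of signal 103. On the nuclear side npp-7, the homolog of Nup153, had a peak at chrI:5691549-5691978 with a pooled signal of 61.9, and 44.5 and 23.3 in replicates 1 and 2 (ranks 496 and 1521). The other basket genes had candidate regions only, npp-21 (TPR) with a signal of 29.2 and npp-16 (Nup50) with 21.5. The 2 npp genes given no place here, npp-26, which RefSeq names nucleoporin GLE1, and npp-27, had signals of 15.4 and 22.2.

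Among the transport receptors, peaks stood at 4 of the 6 importin genes and at none of the 3 exportin genes. Of all nuclear protein-coding genes, 5.29% had one. The groups are small and their difference was not tested. With a window of 2000 bp upstream, or where any base of a region counted, xpo-3 also had a peak. Importin alpha proteins bind the classical nuclear localization signal of a cargo and hand it to importin beta. ima-1 had a peak at chrV:11239296-11239537 with a pooled signal of 137, and 73.2 and 63.0 in replicates 1 and 2 (ranks 91 and 114). ima-2, which the germline and early embryo use, had a peak at chrI:6314731-6315160 with a pooled signal of 84.4, and 43.3 and 41.7 in the replicates (ranks 526 and 396). These importin alpha genes ranked high in both lists. ima-3, which oocytes need in meiosis, had a pooled signal of 32.9, a region of signal 25.8 (rank 1214) in replicate 2 and none in replicate 1.

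In the importin beta family imb-1, which encodes importin beta itself, had a peak at chrI:4926368-4926797 with a pooled signal of 67.6. It scored 43.2 in replicate 1 (rank 529) and 20.3 in replicate 2 (rank 2005). imb-2, the homolog of transportin, had a peak at chrII:14365061-14365490 with a pooled signal of 57.1, and 24.1 and 27.3 in the replicates (ranks 1805 and 1085). Neither stood among the best regions of both replicates. imb-3, an importin of the same family, had a pooled signal of 42.0, with 17.1 and 25.6 in the replicates (ranks 3687 and 1233). The exportin genes xpo-1 (CRM1, the receptor for nuclear export signals), xpo-2 (CAS, which returns importin alpha to the cytoplasm) and xpo-3 (the tRNA exportin) had pooled signals of 13.7, 29.0 and 18.2. All 3 had a region with its summit in the window in replicate 1, and none had one in replicate 2. Where any base of a region counted, xpo-3 was among the best regions of both replicates.

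Of the 5 genes of the Ran cycle, ran-1 and ran-5 had optimal peaks. ran-1 encodes Ran, and its peak at chrIII:10747949-10748378 had a pooled signal of 109.5, with 57.0 and 49.5 in replicates 1 and 2 (ranks 242 and 238). ran-5, which encodes a protein with a Ran-binding domain, had a peak at chrII:6047610-6048039 with a pooled signal of 56.8, and 33.6 and 21.3 in the replicates (ranks 922 and 1814). ran-2, the GTPase-activating protein, ran-3, the exchange factor homologous to RCC1, and ran-4, the Ran importer NTF2, had pooled signals of 38.2, 37.8 and 33.4. These 3 lay below the threshold and within a narrow range. Across the roles, none of the 14 peaks stood at a gene of the central channel, an exportin gene or an unplaced gene, and every other group held at least 1. Those without a peak held only 3, 3 and 2 genes, and the roles were not compared by a test.

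By chromosome, 13 of the 40 genes lie on chromosome I, 8 each on II, III and IV, 3 on V and none on X. Of the peaks, 6 were on chromosome I, 3 on II, 3 on III, 1 on IV and 1 on V. Over all nuclear protein-coding genes, an optimal peak was present at 239 of 2878 on chromosome I, 192 of 3449 on II, 257 of 2640 on III, 188 of 3281 on IV, 158 of 4994 on V and 22 of 2731 on X.

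The 6 strongest peaks of the set stood high in both replicates, and the other 8 in one of them. To compare the replicates by rank, the 1145 best nuclear regions of each replicate were taken, as many as there are nuclear optimal peaks. Of the 40 genes, 11 had a region of replicate 1 among these (27.5%, against 5.11% of all nuclear protein-coding genes) and 10 had one of replicate 2 (25%, against 5.21%). Both lists shared 6 genes (15%, against 3.79%), namely npp-3, npp-6, npp-8, ima-1, ima-2 and ran-1. All 6 also had optimal peaks. Of the other 8 optimal peaks, npp-7, npp-15, imb-1 and ran-5 were among the best regions of replicate 1 alone, and npp-9, npp-12, npp-14 and imb-2 among those of replicate 2 alone. npp-13 was the one gene among the best of replicate 1 without an optimal peak. The optimal list is the top of the pooled list, so that agreement between it and each replicate is partly built in. With 2 times as many regions per replicate, 13 genes were shared in place of 6, against 6.26% of all nuclear protein-coding genes in place of 3.79%, and npp-15 was then the one optimal gene not shared. Spearman's rho between the replicates' signals was 0.80 over the 28 genes with a region in both, against 0.69 over 4538 genes, a description of genes within the same libraries.

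**Figure D2:**
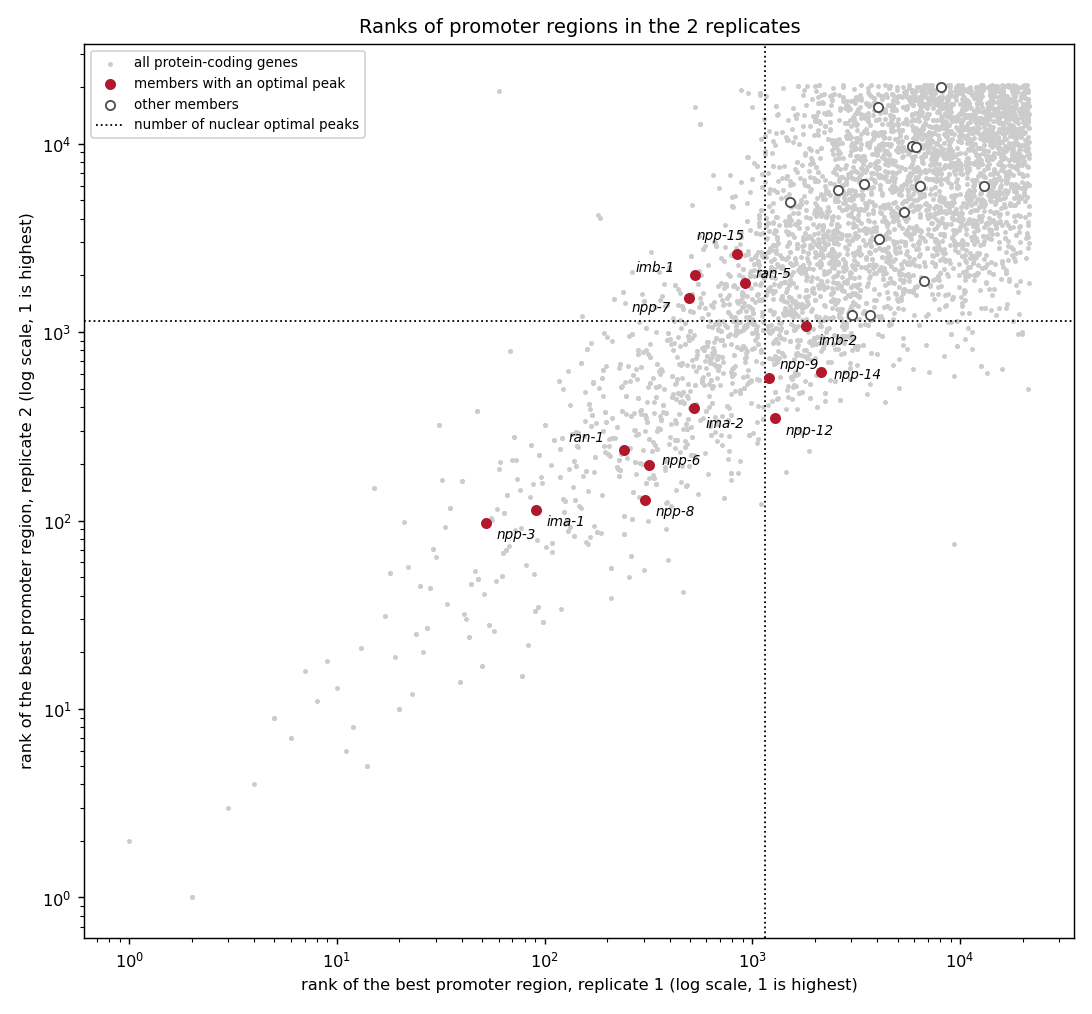
Rank of the best promoter region in replicate 1 (x axis) and replicate 2 (y axis), both on log scales with 1 the highest, for the 28 genes of the set with a region in both lists, over all protein-coding genes in grey; dotted lines mark rank 1145. The 6 genes at the lower left, npp-3, ima-1, ran-1, npp-6, npp-8 and ima-2, are under both lines, and the other labelled genes are under one of them.

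The summits of the 14 peaks lay upstream of the gene's own start in every case, at a median of 286 bp (range 59 bp at npp-9 to 643 bp at npp-12). Over all 1056 genes with an optimal peak the summit was upstream at 94.0%. Of the 14, 13 lay within 500 bp of the start, against 81.7% of all genes with an optimal peak. In the replicates the summits of the best region lay within 100 bp of each other at all 14 genes, with a median gap of 31 bp (range 4 bp at ima-2 to 87 bp at imb-2). The same held at 92.2% of all genes with an optimal peak and a region in both replicates, where the median gap was 27 bp. Among the genes of the set with a candidate region only, the gap was within 100 bp at 4 of the 13 that had a region in both replicates. At those the median gap was 129 bp, close to the 126 bp over all genes with a candidate region only and a region in both replicates. At such genes the replicates thus often marked different points, within the set and outside it. In the set the replicate summits were farthest apart at npp-24 (898 bp) and ran-2 (594 bp), and closest at imb-3 (8 bp). Over all genes with a candidate region only, the gap was within 100 bp at 43.4%.

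Most of the peaks also lay near the start of a neighbour read in the opposite direction. At 11 of the 14 genes (78.6%, interval 52.4–92.4, against 58.6% of all genes with an optimal peak) the summit also fell in the promoter window of another protein-coding gene, in each case one on the opposite strand. The exceptions were npp-8, ima-2 and imb-2, whose peaks lay in no other window. On the best regions of replicate 2 alone this held for 7 of the 10 genes of the set with such a region, against 58.3% of all genes with one. On those of replicate 1 alone it held for 8 of 11, against 57.8%. npp-3 shares its peak with top-2, the gene for topoisomerase II (251 bp from the summit). ran-1 shares its peak with dkc-1, the homolog of the RNA-modifying enzyme dyskerin (265 bp). npp-6 shares its peak with spd-5, the gene for a scaffold protein of the centrosome. The nearest spd-5 start was 223 bp from this summit, which lay downstream of it, inside spd-5 and outside that start's window. The summit fell in the window of a spd-5 start farther away, and was not shared with windows of 500 bp upstream. The ima-1 peak is shared with dvc-1 (93 bp), that of npp-14 with the mRNA capping enzyme gene cel-1 (19 bp), and that of npp-7 with the netrin receptor gene unc-40 (261 bp).

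The other shared neighbours were mfsd-13.1 at imb-1, F59A2.5 at npp-9, T23H2.3 at npp-12, C29E4.13 at npp-15 and R12C12.6 at ran-5. At 9 of the 14 genes the neighbour's start was nearer to the summit than the gene's own. With each peak given to its nearest start alone, 5 genes kept it, namely npp-3, npp-8, npp-9, ima-2 and imb-2 (5 of 40, against 3.66% of all nuclear protein-coding genes). Which of the genes beside a shared peak it bears on was not tested. Upstream neighbours on the opposite strand and within 1000 bp were found at 11 of the 14 genes with a peak and at 9 of the 26 without one. Over all nuclear protein-coding genes these shares were 46.6% with a peak and 15.9% without.

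**Figure D3:**
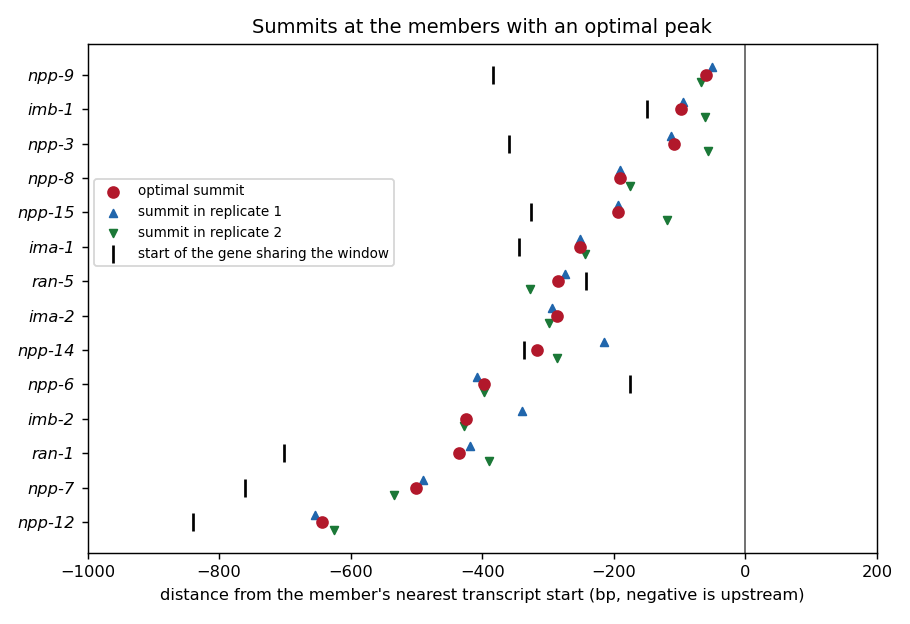
Distance of the summit from the nearest transcript start of each of the 14 genes with an optimal peak, in bp with upstream negative; circles are the optimal summits, triangles those of replicates 1 and 2, and bars the start of the neighbour whose promoter window holds the same summit. All 14 summits are upstream, from 59 bp at npp-9 to 643 bp at npp-12, and 3 genes (npp-8, ima-2 and imb-2) have no bar. At npp-6 the bar is the nearest spd-5 start, whose own window does not reach the summit.

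By annotation, 11 of the 14 summits were intergenic. That of npp-6 lay in an intron of spd-5, that of ran-5 in a coding exon of R12C12.6, and that of ran-1 in an exon of the noncoding RNA gene K01G5.11. A noncoding gene lay within 200 bp of the summit at ran-1 (K01G5.11 and K01G5.12) and ran-5 (R12C12.13) and at none of the other 12 peaks. The shares of intergenic summits and of nearby noncoding genes over all genes with an optimal peak were not counted. These counts therefore have nothing to be read against and mark no trait of these genes. Some genes of the set are also neighbours of each other. ran-2 starts 480 bp beyond the end of npp-15 on the same strand, and the npp-15 gene carries the optimal peak, while ran-2 had a pooled signal of 38.2 of its own. imb-3 lies 3560 bp from xpo-2 on the same strand, and neither had an optimal peak.

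Strings of the E2F class were present in the 200 bp around the summit at 8 of the 14 peaks, and the forkhead consensus at none. Matches were counted on both strands, and strings on opposite strands may overlap each other, as a pair does at ima-2. The 8 genes were npp-3, npp-7, npp-8, npp-9, npp-12, ima-1, ima-2 and ran-1, or 57.1% (95% Wilson interval 32.6–78.6). The share was 29.2% over the 736 optimal peaks in promoter windows of all genes, 23.4% over all 1145 nuclear optimal peaks, and 8.73% over the 20584 pooled regions that overlap no optimal peak. It was 6.28% of the 200 bp upstream of each nuclear protein-coding gene. In windows of 100 bp the count was 5 of 14, against 15.7% of nuclear optimal peaks.

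Of the 6 genes that ranked among the best of both replicates, 4 held more than 1 such string in the window. ima-2 had 4 matches, of which a pair overlaps, and npp-3, npp-8 and ran-1 had 2 each. The share of all optimal peaks with more than 1 match is not given here, so this count has nothing to be read against. ima-1 had 1, 24 bp from its summit, and npp-6 had none. Among the 23 genes with a candidate region only, 4 windows held an E2F string (17.4%, against 10.7% of candidate promoter regions of all genes without an optimal peak), at imb-3, npp-13, npp-20 and npp-25. The median GC content of the 14 windows was 43.2%, against 39.0% over the same 200 bp summit windows of all genes with an optimal peak, and its part in the share of windows with a string was not tested.

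The forkhead consensus GTAAACA is a site that many proteins of the family of UNC-130 bind. It was in 0 of the 14 windows, which allows a share of up to 21.5% by the Wilson interval, and it was in 2.97% of all nuclear optimal peaks. It was also absent in windows of 100 and 400 bp around the 14 summits, against 1.66% and 5.85% of nuclear optimal peaks. At shares this low, few or no matches would be counted among 14 windows. The shorter form TAAACA was in 1 of the 14, at npp-15, against 14.9% of nuclear optimal peaks and 18.9% of the 200 bp upstream of all nuclear protein-coding genes. Such counts describe the letters in these windows and say nothing of the factor. Among the genes with a candidate region only, the consensus stood at 2 of 23 (8.70%), ran-2 and ran-3, against 2.74% of candidate promoter regions of all genes without an optimal peak. The shorter form stood at 5 of the 23 (21.7%, against 16.6%), namely npp-18, npp-19, npp-21, ran-2 and ran-3. Shown in capitals are the shorter form at npp-15 (chrIII:7928805-7928834, plus strand) and the consensus at ran-2 and ran-3. The last 2 are at chrIII:7933143-7933172 and chrII:8325269-8325298 on the minus strand.
npp-15: tatttaattgattTAAACAaatattttgaa
ran-2: gtagtttttgaGTAAACAatcacaaaaaca
ran-3: cattcgtttttGTAAACAtctatttatttt

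**Figure D4:**
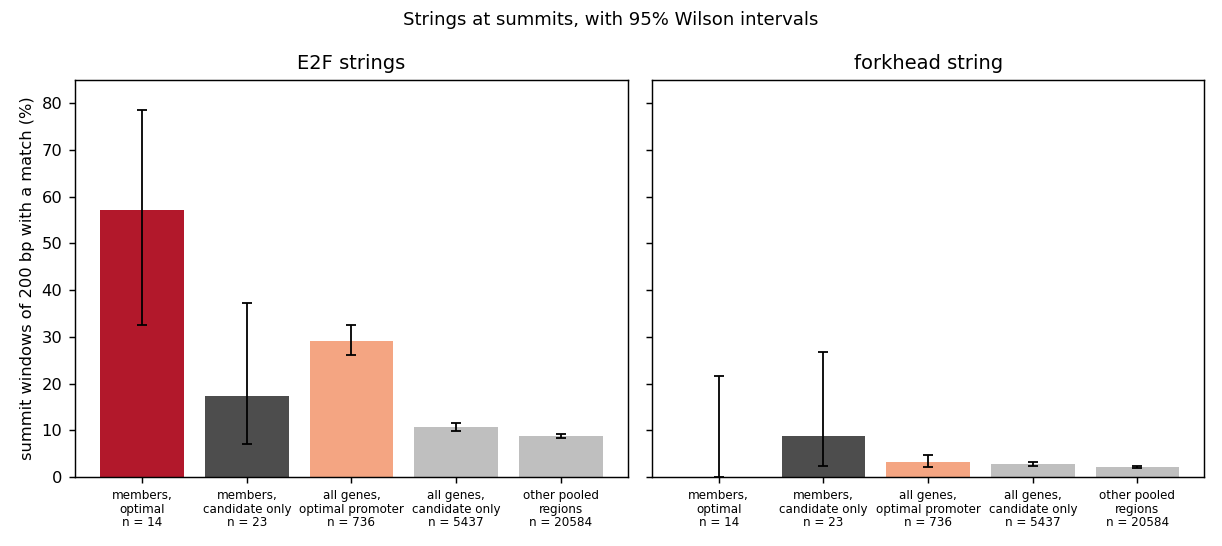
Share of summit windows of 200 bp that hold an E2F string (left) or the forkhead consensus (right), in percent with 95% Wilson intervals, for the genes of the set with an optimal peak (n = 14) or a candidate region only (n = 23), all genes' optimal promoter peaks (n = 736), all genes' candidate-only promoter regions (n = 5437) and the pooled regions that overlap no optimal peak (n = 20584). E2F strings were in 57.1% of the first windows and the forkhead consensus in 0 of 14.

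Genes of the nuclear envelope, of mRNA export and of the SUMO pathway, which work beside the pore but are named otherwise, were looked at in the same way. Of 29 such genes 25 had a pooled candidate region, against 36.5% of all nuclear protein-coding genes. An optimal peak was present at 5 of the 29, against 5.29%. Among those with a candidate region this was 5 of 25, against 14.5% of all genes with one. Of the 9 genes of the lamina and its partners, 3 had one. These were lem-2 (signal 107) and emr-1 (56.5), which encode proteins of the inner nuclear membrane, and baf-1 (62.2), whose product binds DNA and proteins of the envelope. lem-2 was among the best regions of both replicates, while emr-1 ranked 4360 in replicate 1 and 424 in replicate 2. mel-28, the homolog of ELYS, which seeds pore assembly on chromatin, had a signal of 46.8. Of the 7 mRNA export genes aly-2 had a peak (86.7), and of the 8 SUMO genes ubc-9, which encodes the conjugating enzyme, had one (81.5), while smo-1, the gene for SUMO, lay just under the threshold at 53.2. No optimal peak was found at the 5 genes of the bridge through the envelope, of which sun-1 had the highest signal, 47.8.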

How the data were processed

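The analysis started from the ChIP-seq region lists of 2 biological replicates of tagged UNC-130, numbered as in the labels. One label field names unc-130 as the antibody's target and another GFP; the second is followed here. The authors deposited, per replicate and for the pooled replicates, a long list of candidate regions, and a final list named optimal peaks of the irreproducible discovery rate (IDR) method. Per the deposited listings each list comes from the replicates' alignments and 1 control file, which were not analysed here. For the aligner, the peak caller and the IDR cutoff nothing is given in the sources. Signal values were used as the authors deposited them. The deposited −log10 q-value was 3.56 for every nuclear optimal peak and took no part in any count or rank. Summits came from the offsets in the deposited lists.

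The ce11 lists were used with the WBcel235 assembly (Ensembl release 115 annotation), within whose chromosome lengths all regions lay. Of the ce10 lists, 1 served for its lowest signal. The lists held 21622 and 20625 entries in replicates 1 and 2, 22106 pooled and 1168 optimal, of which 21599, 20602, 22082 and 1145 were nuclear and used for ranks. The nuclear optimal peaks equal the pooled regions at or above 1 signal value. Each gene took its region of highest signal with the summit in the promoter window, so a region can count for several genes. Coordinates are 1-based. The genes named are all those of the set, the neighbours that share their peaks, and listed genes of related function with an optimal peak; mel-28, sun-1 and smo-1 were named after their values were seen. The set, the lists and the alternatives were chosen with earlier results of these data known. With 1 group no test between conditions was possible, and no test was run over the set; shares carry 95% Wilson intervals. Assignment and string search were tested on simulated data. Python 3.11.15, pandas 2.3.3 and scipy 1.17.1 were used. Columns without a sample or pool numbered 0.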

Additional observations from a re-analysis of the deposited data

How the results depend on the processing

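Of 31 alternative values, 25 stayed within 1.5 times the value reported. The 25 include the forkhead counts, which were 0 in the main result and at each alternative, where such a range has no meaning. The number of genes with an optimal peak, 14, is followed here by the share of all nuclear protein-coding genes at the same setting. It was 5 with each peak given to its nearest start only (against 3.66%). Among the 572 optimal peaks of highest signal it was 7 (against 2.97%). Without replicate 2 it was 11 (against 5.11%), and without replicate 1 it was 10 (against 5.21%). No final list exists for 1 replicate, so these are the counts given above on the 1145 best regions of the replicate that remained. The peak call itself was not repeated. With promoter windows of 500 and 2000 bp upstream it was 13 (against 4.33%) and 16 (against 6.62%). Where any base of a region counted it was 15 (against 5.67%). At the lowest ce10 optimal signal of 46.8, an alternative chosen after seeing the data, it was 14 (against 6.46%). Genes among the best regions of both replicates numbered 13 in place of 6 with 2 times as many regions (6.26% of all nuclear protein-coding genes in place of 3.79%). Genes that share their peak with a neighbour, 11 of 14, ranged from 7 to 8 when 1 replicate was left out. These were 7 of 10 on the best regions of replicate 2 (58.3% of all genes with such a region) and 8 of 11 on those of replicate 1 (57.8%), so that fewer genes were counted. Genes with a candidate region numbered 35 on the list of replicate 1 and 30 on that of replicate 2, against 35% and 34.3% of all nuclear protein-coding genes. Windows with an E2F string numbered 5 in place of 8 at 100 bp, against 15.7% of nuclear optimal peaks in place of 23.4%. On each replicate alone they numbered 7, against 21.9% of the 1145 best regions of replicate 1 and 21.8% of those of replicate 2. The background share was 5.29% in place of 14.5% with all nuclear protein-coding genes. The causes were not tested, other than that fewer regions or narrower windows were counted. Leaving out a replicate for candidates, neighbours and strings was also chosen after seeing the data. With 14 peaks the interval around any share is wide, and depth is unknown.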

Other observations

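At ran-3 and xpo-3, final peaks had their summits upstream of the promoter window and were not counted for them. The peak upstream of ran-3 (chrII:8326485-8326914, signal 68.3) had its summit 1648 bp upstream of the gene's start. The peak upstream of xpo-3, the tRNA exportin gene (chrIV:7924974-7925403, signal 70.9), had its summit 1157 bp upstream, and a stretch of it reached into the window. The nearest starts were those of C26D10.3 (1314 bp away) and C49H3.3 (836 bp).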
